A study of Mus musculus with 2 samples.

Results

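The genes described here are 10 regulators and signals at the meeting point of the NF-kB pathway and the IL-6 cytokine family. They were chosen by their symbols in the feature table and by no rule on measured values, though earlier results of these data were known. They are Tnf, Tnfaip3, Nfkbia, Nfkbiz, Nfkb1, Relb, Il6, Lif, Osmr and Socs3, which is 10 of the 32285 features counted. Their messages were counted in single cells of dorsal skin from 2 groups of male C3H/HeN mice aged 9 weeks, for which the labels name no engineered allele. The control group had received vehicle, and the TP group, the androgenetic alopecia (AGA) model, subcutaneous testosterone propionate (TP) at 0.5 mg per day. The methods place shaving of the back before the injections and name no single group for it. Skin of 15 mice was pooled per group before dissociation, so each group is 1 library and 1 sample, and the values of single mice cannot be seen. Another group, which also received an antibody against CXCL12, is not analysed here.

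NF-kB is a family of dimeric transcription factors that cytokines such as TNF release from inhibitors in the cytoplasm. Among its first target genes are its own brakes: Nfkbia encodes IκBα, the inhibitor that takes NF-kB out of the nucleus, and Tnfaip3 encodes A20, a ubiquitin-editing enzyme that shuts down the receptor complex. The IL-6 family signals through receptors that share gp130 and through JAK kinases to STAT3, and Socs3, a target of STAT3, blocks that receptor in turn. Messages of such feedback genes are made and lost quickly.

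The control library had 39076 cells and the TP library 18542 after filtering, with medians of 2047 and 4794.5 UMIs (counted molecules) per cell. The limit on mitochondrial content had removed 7.58% of the control barcodes and 22.6% of the TP barcodes, and 220 barcodes that passed the filters were present in both libraries. Clusters were made without the 10 genes and without the other genes of their pathways, and were named from marker lists as 20 cell classes, of which 17 had at least 50 cells in each library and are compared here. The abbreviations are those of the study, DF for dermal fibroblasts, DPC for dermal papilla cells and DSC for dermal sheath cup cells. Markers of keratinocytes, follicle, dermis, vessels, nerve and immune cells, which dorsal skin should hold, were found. No cluster was named from the marker lists of sebocytes and mast cells, and clusters with 11826 control and 3242 TP cells stayed unnamed. Levels are in CPM, the UMIs of a gene per 1000000 UMIs of the class in that library. Parentheses hold 95% intervals for counting error alone. With 1 library per group there is no replicate check, so no difference was tested against the spread between animals, dissociations or libraries, and a gene is called higher or lower in TP where its level differed at least 2-fold, its interval left out 1, and at least 10 UMIs were counted in both libraries together.

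Promoter sequence is shown first for the members whose windows held a match to a motif of these factors. Nfkbia, Tnfaip3 and Socs3 are 3 of the 4 members called most often below, and Nfkbiz, the other one, had no window. Il6, which also held a match, was called in 1 of the 17 classes. The windows are the 250 bases upstream of a RefSeq transcript start on GRCm38.p6, written on the gene's strand, and 7 of the 10 members had at least 1 window, with 8 windows in all. Capitals mark a match to the kappaB consensus, searched on both strands, or in Socs3 to the STAT motif TTCNNNGAA, which reads alike on both strands. A kappaB match lay in 3.90% and a STAT match in 7.02% of the 32851 windows of that length. The Nfkbia window is chr12:55492648-55492897 on the minus strand, directly before the gene at chr12:55489409-55492647, and its match ends 20 bases before the start.
Nfkbia: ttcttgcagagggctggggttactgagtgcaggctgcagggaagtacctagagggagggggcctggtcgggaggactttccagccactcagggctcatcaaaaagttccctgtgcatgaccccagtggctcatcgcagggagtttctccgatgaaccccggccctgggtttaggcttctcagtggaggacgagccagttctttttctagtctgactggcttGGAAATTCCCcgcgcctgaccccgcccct
The Tnfaip3 window is chr10:19015411-19015660 on the minus strand, before the gene at chr10:19000910-19015410, and it held 2 matches, the nearer of which ends 3 bases before the start.
Tnfaip3: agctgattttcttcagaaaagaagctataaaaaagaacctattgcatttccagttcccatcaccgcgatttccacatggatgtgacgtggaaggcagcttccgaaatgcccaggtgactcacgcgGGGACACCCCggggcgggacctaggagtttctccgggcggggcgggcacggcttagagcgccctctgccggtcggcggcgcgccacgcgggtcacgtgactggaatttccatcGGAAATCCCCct
The Il6 window is chr5:30012864-30013113 on the plus strand, before the gene at chr5:30013114-30019975, and its match ends 35 bases before the start.
Il6: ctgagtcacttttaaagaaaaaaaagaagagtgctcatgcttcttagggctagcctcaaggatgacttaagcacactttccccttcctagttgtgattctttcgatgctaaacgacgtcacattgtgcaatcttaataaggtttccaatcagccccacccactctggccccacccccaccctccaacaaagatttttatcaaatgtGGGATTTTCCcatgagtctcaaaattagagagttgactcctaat
The Socs3 window, chr11:117969367-117969616 on the minus strand, lies inside the annotated gene at chr11:117966079-117970336, so only the 29 bases around its STAT match are shown, chr11:117969502-117969530. The match ends 146 bases before the transcript start of this window.
Socs3: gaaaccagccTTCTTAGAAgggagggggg
The windows of Tnf, Lif and Osmr and a second window of Tnfaip3 held neither motif, which says only that these letters do not occur in those windows. Matches are a description of the sequence, and nothing was measured here on binding.

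Over all kept cells, 5 of the 10 members were higher in TP and 0 were lower, beside 8.38% of the 21183 genes with at least 10 UMIs that were higher and 11.7% that were lower. The 5 were Il6, Socs3 and the feedback genes Tnfaip3, Nfkbiz and Nfkbia. Nfkbia was not a call when levels were divided by ribosomal protein UMIs, at 1.88, or when the level of inner root sheath-like cells was subtracted. All 10 ratios were above 1 on this scale, though those of Tnf (0.979), Lif (0.970) and Osmr (0.924) were below 1 when levels were divided by ribosomal protein UMIs. The median log2 ratio of the members was 0.83 beside -0.25 over all genes.

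Nfkbia was at 115 CPM (113 to 117) in control against 243 CPM (240.0 to 245) in TP. Tnfaip3 was at 8.41 CPM in control against 21.5 CPM in TP, and Nfkbiz, which encodes the atypical nuclear protein IκBζ, at 112 CPM in control against 269.6 CPM in TP. These were ratios of 2.11 (2.06 to 2.15), 2.56 (2.37 to 2.76) and 2.42 (2.37 to 2.47). Socs3 was at 22.0 CPM in control against 81.4 CPM in TP, with a ratio of 3.71 (3.55 to 3.88), while Il6, a rare message here, was counted 15 times in control against 126 times in TP, a ratio of 6.78 (3.96 to 12.5). The remaining 5 members were closer together in the 2 libraries. Relb had a ratio of 1.49 (1.41 to 1.58), Nfkb1 of 1.22, Tnf of 1.10 (0.993 to 1.22), Lif of 1.09 (0.589 to 2.05) and Osmr of 1.04 (0.995 to 1.08).

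The 2 libraries differed in the share of each cell type, with suprabasal (6.36% of control and 20.3% of TP cells), DF-like and macrophage-like cells more frequent in TP and hair matrix and inner root sheath cells more frequent in control. In the whole-library values, more cells of a type and more RNA per cell cannot be told apart. When each class was given its control share of UMIs in both libraries, 4 members were higher and 0 lower, beside 3.77% and 4.75% of all genes. Socs3 (3.86, 3.68 to 4.05) and Tnfaip3 (2.63, 2.39 to 2.89) kept about the ratio they had before. Nfkbia and Nfkbiz came to 1.84 (1.80 to 1.89) and 1.67 (1.63 to 1.71), under the 2-fold limit. Il6 came down to 2.01 (1.16 to 3.48), just over the limit, and was not a call without the 1% of cells with most Il6 UMIs. Within single classes Il6 passed only in dendritic and Langerhans-like cells, where control had 0 Il6 UMIs. Tnf went up to 2.25 (2.00 to 2.53) and was among the 4. It came to 1.76 with coarser clusters and 1.93 with a mitochondrial limit of 5%, neither of them a call. Without the 1% of cells with most Tnf UMIs it came to 4.79, but that setting takes away many of the few Tnf counts and cannot decide. Within the 17 classes, 130 of the 170 pairs of member and class had at least 10 UMIs, of which 43 were higher and 6 were lower in TP. Over all genes, 3.36% of such pairs were higher and 7.49% lower. With TMM factors, which raise the TP levels of the typical gene, 48 pairs were higher and 2 lower, namely Osmr in DSC-like cells and Tnf in suprabasal cells.

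**Figure D1:**
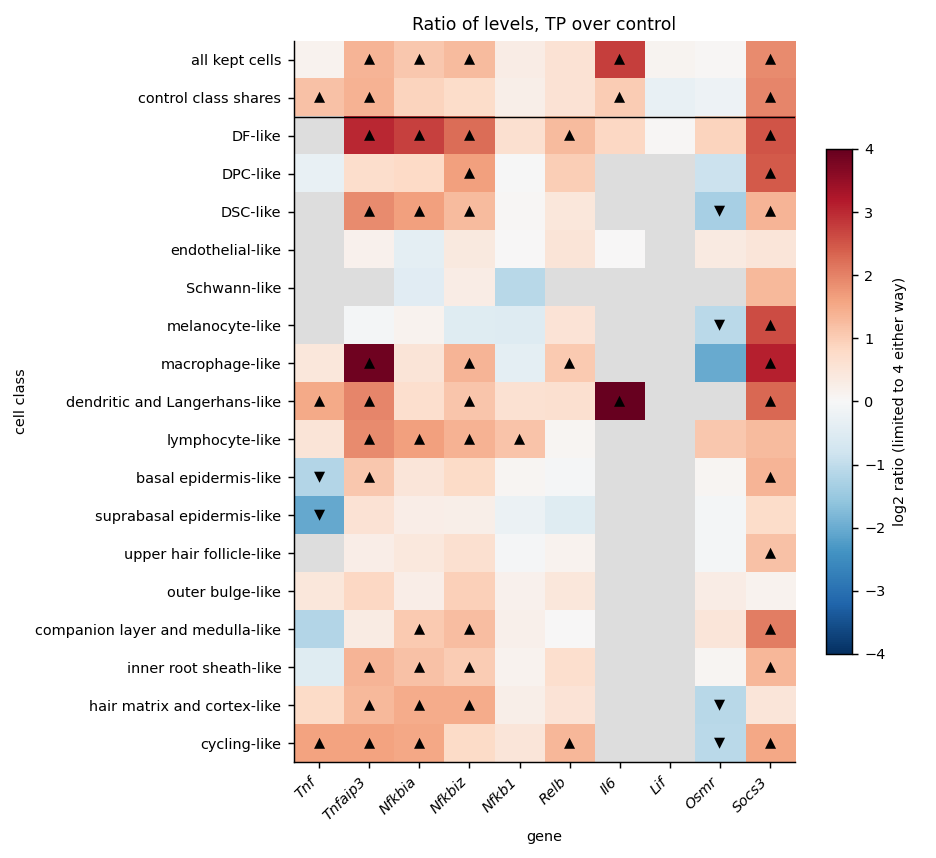
Colours give the log2 ratio of the level in the TP library over that in the control library, for each gene (columns) and cell class (rows), with the whole libraries and the values at the control class shares in the top 2 rows. Triangles mark the calls, 43 up and 6 down in the 17 classes, and grey cells have under 10 UMIs. Most upward calls stand in the columns of Tnfaip3, Nfkbia, Nfkbiz and Socs3. The dark cell of Il6 in dendritic and Langerhans-like cells is drawn at the limit of the scale because control had 0 UMIs.

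Nfkbia, the inhibitor made in the fastest loop, had its largest ratio in DF-like cells. In DF-like cells Nfkbia was at 55.5 CPM in control against 369 CPM in TP, with a ratio of 6.64 (4.49 to 10.3), and in DSC-like cells at 126 CPM in control against 394 CPM in TP, with a ratio of 3.14 (2.46 to 4.07). In DPC-like cells, the specialised fibroblasts at the base of the follicle, it was at 65.3 CPM in control against 115 CPM in TP, with a ratio of 1.75 (1.59 to 1.93), which is short of 2-fold. That TP level was below the one of inner root sheath-like cells, 134 CPM (123 to 145), the keratinocytes used below as a reference for free RNA. With their level subtracted no Nfkbia was left in DPC-like cells of TP, a call in the other direction. Melanocyte-like cells of TP were lower still, at 70.6 CPM. The reference level is thus not free RNA alone for Nfkbia, and subtracting it cannot decide here. Endothelial-like cells had the highest Nfkbia level of the compared classes in control, 524 CPM (446 to 612), an interval that overlaps that of dendritic and Langerhans-like cells, and were lower in TP at 397 CPM (353 to 444), a difference below 2-fold. In TP the highest levels were those of dendritic and Langerhans-like cells, 712 CPM (637 to 793), and lymphocyte-like cells, 588 CPM (502 to 686), whose intervals overlap. Nfkbia was called higher in 7 of the 17 classes and lower in 0, and its ratio ran from 0.724 in Schwann-like cells to 6.64 in DF-like cells. The other 5 classes with a call were lymphocyte-like cells, at a ratio of 3.14 (2.42 to 4.10), and 4 more at ratios of 2.09 to 2.95. Those 4 were companion layer and medulla-like, inner root sheath-like, hair matrix and cortex-like and cycling-like cells. The few neutrophil-like cells, 7 in control against 35 in TP and therefore not compared, had 5676 CPM in control against 11706 CPM in TP.

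Tnfaip3 was a rare message in control in most classes, so that several of its ratios rest on few control counts. DF-like cells had 4 UMIs in control against 343 in TP, which are 8.88 CPM in control against 72.3 CPM in TP, with a ratio of 8.14 (3.15 to 30). Macrophage-like cells had 3 UMIs in control against 219 in TP, which are 11.7 CPM in control against 174 CPM in TP, with a ratio of 14.9 (5.04 to 72.9). That was the largest finite ratio of any member and class, and its interval is wide because the control count is so small. Lymphocyte-like cells carried the highest level of the compared classes in both libraries, 102 CPM (75.6 to 134) in control against 380.4 CPM (311 to 460.0) in TP. Their intervals do not overlap, and the ratio was 3.74. Dendritic and Langerhans-like cells stood next, with a control interval that overlaps theirs, at 52.4 CPM in control against 203 CPM in TP, with a ratio of 3.87 (1.71 to 10.8). Tnfaip3 was called higher in 9 of the 17 classes and lower in 0. In the epidermis it was called in basal cells, at 18.1 CPM in control against 37.9 CPM in TP, with a ratio of 2.09 (1.68 to 2.62), and not in suprabasal cells, where the ratio was 1.48 (1.21 to 1.82).

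Nfkbiz, which is needed for a subset of late NF-kB target genes, had its highest level in both libraries in the basal epidermis among the compared classes, 362 CPM (347 to 378) in control against 613 CPM (598 to 628) in TP. That is a ratio of 1.69, which is not a call. Suprabasal cells stood at 272 CPM in control against 317 CPM in TP. The calls lay elsewhere, in 9 of the 17 classes, all higher. The ratio was 4.74 (3.05 to 7.79) in DF-like cells, 3.13 (2.87 to 3.42) in DPC-like cells, 2.58 (1.94 to 3.50) in macrophage-like cells and 2.40 (1.79 to 3.28) in DSC-like cells. Macrophage-like cells went from 199 CPM (148 to 261) in control to 512 CPM (474 to 554) in TP, with no overlap.

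The NF-kB subunits were called in fewer classes than the feedback genes. Nfkb1 encodes p105, the precursor of the p50 subunit and itself an inhibitor, and it passed the rule only in lymphocyte-like cells among the 17 classes, at 239 CPM in control against 531 CPM in TP, with a ratio of 2.22 (1.73 to 2.85). In the other 16 classes its ratio lay between 0.461 in Schwann-like cells and 1.56 in DF-like cells, and it was 0.999 (0.906 to 1.10) in DPC-like cells and 1.01 (0.766 to 1.34) in endothelial-like cells. Relb, the subunit of the non-canonical pathway, was called in 3 classes. It had a ratio of 2.53 (2.10 to 3.05) in cycling-like cells, 2.42 (1.09 to 6.70) in DF-like cells, where control had 6 UMIs, and 2.07 (1.00 to 4.95) in macrophage-like cells, where control had 8. In DF-like and macrophage-like cells none of the subclusters passed by itself, and of the 2 cycling-like clusters Relb passed in 1, at 2.98 (1.91 to 4.6) against 1.79 (1.44 to 2.24). DPC-like cells missed the limit narrowly with 1.99 (1.68 to 2.37). Dendritic and Langerhans-like cells had the highest Relb level of the compared classes in both libraries, 69.9 CPM in control against 108 CPM in TP, with intervals that overlap between the libraries.

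**Figure D2:**
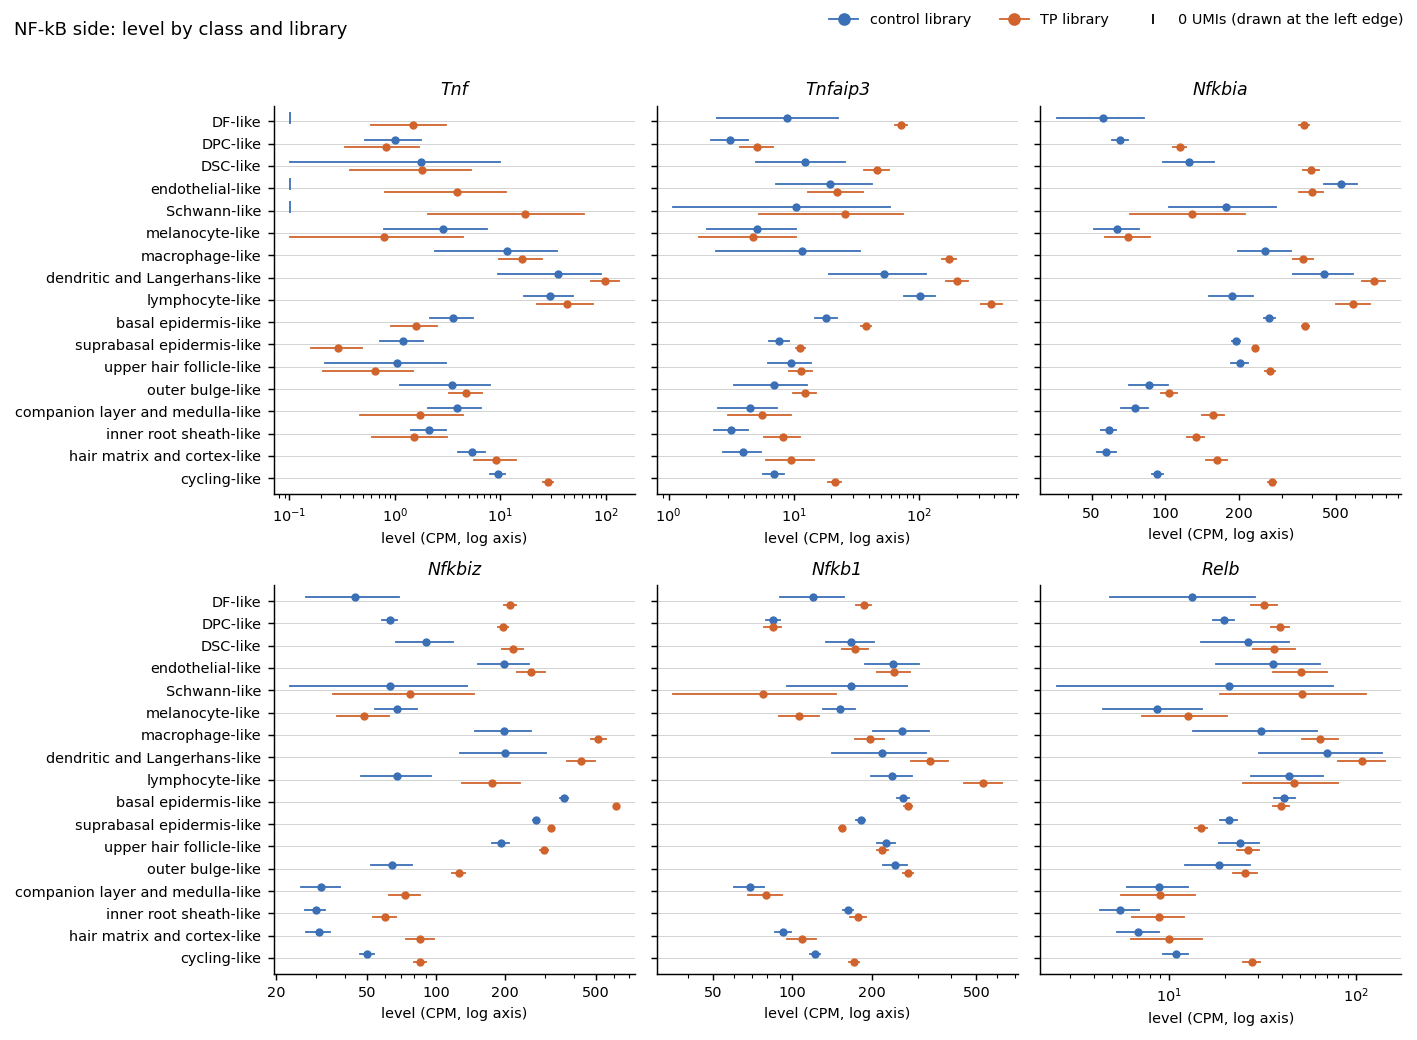
Levels in CPM (log axes) of the 6 genes on the NF-kB side in the 17 compared classes, blue for the control library and orange for the TP library, with 95% Poisson intervals as lines. In DF-like cells the intervals of Tnfaip3, Nfkbia and Nfkbiz do not overlap between the libraries, while those of Nfkb1 in DPC-like, DSC-like and endothelial-like cells nearly coincide.

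Tnf, a cytokine that starts the pathway, was higher in some classes and lower in others. Its level over all cells was 6.11 CPM (5.65 to 6.6) in control against 6.72 CPM (6.29 to 7.18) in TP, intervals that overlap. Without the 1% of cells with most Tnf UMIs that ratio came to 2.16, a call. Tnf had 650 UMIs in 39076 control cells and 885 UMIs in 18542 TP cells. Leaving out 1% of cells can take away many of these counts, so that setting cannot decide on the whole-library ratio. In basal epidermis-like cells Tnf was lower in TP, at 3.56 CPM in control against 1.58 CPM in TP, with a ratio of 0.444 (0.219 to 0.893). Suprabasal cells had 1.19 CPM in control against 0.291 CPM in TP, with a ratio of 0.244 (0.113 to 0.514). Both values rest on 14 to 20 UMIs per library and class, and neither was a call when doublets were kept or when the 1% of cells with most Tnf UMIs were left out. Leaving out those cells takes away the counts themselves, so with so few UMIs that setting cannot decide. Neither of the 2 basal clusters passed by itself. Inner root sheath-like cells, the reference for free RNA, had 2.12 CPM in control against 1.52 CPM in TP, above both suprabasal levels and near the basal level of TP. With that level subtracted neither class had a Tnf call. No suprabasal level was left, and the basal ratio was 0.0434 on the little that was left, so the subtraction cannot decide on these calls. In cycling-like cells Tnf was higher, at 9.43 CPM in control against 28.5 CPM in TP, with a ratio of 3.02 (2.49 to 3.69). DF-like cells had 0 and 7 UMIs and macrophage-like cells 3 and 20, so that in these classes as a whole no Tnf difference was detectable at this depth.

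The cells with most Tnf messages were found by cluster. An unnamed cluster had Shh, a signal of the growing hair matrix, with Edar, Kcnip1 and Scube1 among its leading genes, and held 153 of the 650 Tnf UMIs of control and 108 of the 885 of TP. Its level was 43.4 CPM in control against 162 CPM in TP, a ratio of 3.72 (2.88 to 4.80), in 1677 and 183 cells. A second unnamed cluster, led by Stmn1, Ptn and other genes of dividing cells, had 22.4 CPM in control against 46.6 CPM in TP (2.08, 1.61 to 2.71). A cycling-like cluster led by histone genes had 17.4 CPM in control against 32.5 CPM in TP (1.87, 1.51 to 2.31) and supplied most of the cycling-like Tnf UMIs, 121 of 147 and 349 of 358. In TP this cluster made up 893 of the 1224 cycling-like cells, in control 1240 of 5539, so the class ratio of 3.02 includes that shift between its clusters, and neither cluster passed by itself. In TP the highest level was in a cluster of dendritic and Langerhans-like cells that had Cd207, a marker of Langerhans cells, among its leading genes, with 1 UMI in 25 control cells and 26 UMIs in 19 TP cells (15.8, 2.59 to 648).

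**Figure D3:**
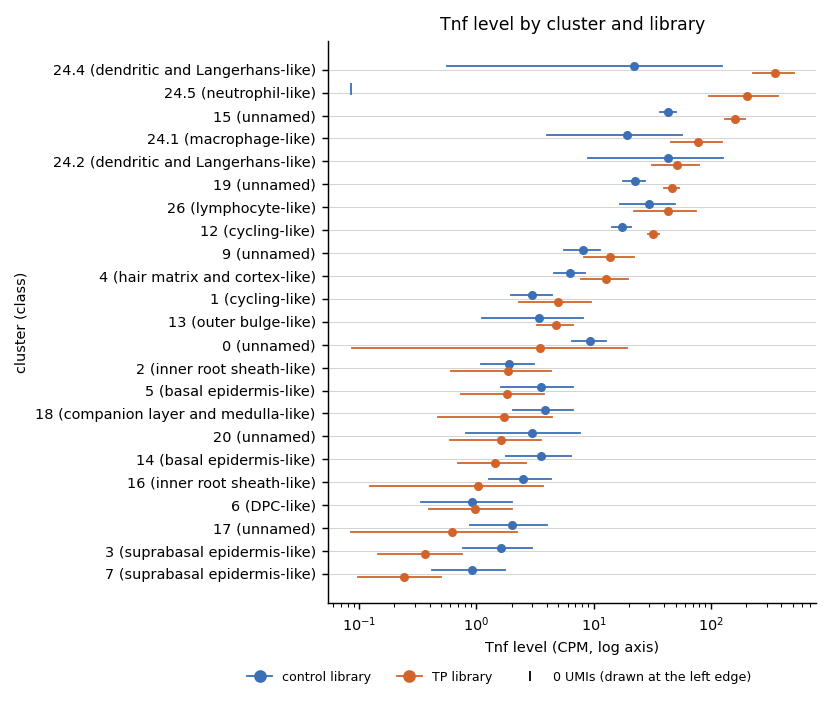
Tnf level in CPM (log axis) in each cluster with at least 10 Tnf UMIs, blue for control and orange for TP, with 95% Poisson intervals as lines and the clusters ordered by their TP level. The unnamed clusters 15 and 19 and cycling-like cluster 12 are higher in TP with intervals that do not overlap, and both suprabasal clusters, 3 and 7, stand at the bottom with TP below control.

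On the IL-6 side, the ligand genes Il6 and Lif were rare, and the receptor gene Osmr was less so. Il6 was found mainly in 3 classes. DF-like cells had 3 UMIs in control against 56 in TP, at 6.66 CPM in control against 11.8 CPM in TP, with a ratio of 1.77 (0.576 to 8.85). Endothelial-like cells had 8 and 20, at 26.0 CPM in control against 26.1 CPM in TP, with a ratio of 1.00 (0.423 to 2.63). Dendritic and Langerhans-like cells had 0 and 24. Against the limit of 3 counts that a count of 0 allows in control, the Il6 level of TP there was 1.98-fold. The exact interval of the ratio itself started at 1.49. The latter class was the only one of the 17 in which Il6 passed the rule, and of its 24 UMIs 14 came from 1 cell and 75.0% from 2 cells. No Il6 UMI was counted in DPC-like cells of either library, which allows levels of up to 0.253 CPM in control and 0.356 CPM in TP. In DF-like cells of TP the message was held by 31 of 581 cells, and the 6 cells with most of it had 46.4% of the UMIs.

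Lif, a second ligand of the family, was counted 20 times in control against 27 times in TP, and DF-like cells of TP held 11 of the latter. No class had enough counts of Lif to show a difference. Osmr, the receptor subunit for oncostatin M, was at 36.0 CPM in control against 37.4 CPM in TP over all cells and was highest in endothelial-like cells of both libraries, 137 CPM in control against 174 CPM in TP. It was lower in TP in 4 of the 17 classes and higher in 0. The ratios were 0.397 (0.248 to 0.637) in DSC-like cells, 0.474 (0.406 to 0.553) in cycling-like cells, 0.468 (0.254 to 0.802) in hair matrix and cortex-like cells and 0.478 (0.254 to 0.866) in melanocyte-like cells. The call in cycling-like cells held in neither of their clusters, where the ratios were 0.907 (0.719 to 1.13) and 0.846 (0.650 to 1.10). Those in cycling-like and hair matrix and cortex-like cells were lost with a mitochondrial limit of 5%, with coarser clusters and with TMM factors, and that in melanocyte-like cells with TMM factors. The TMM factors, 0.895 in cycling-like, 0.936 in hair matrix and cortex-like and 0.886 in melanocyte-like cells, left these ratios near the 2-fold limit. Inner root sheath-like cells, the reference for free RNA, had 42.6 CPM in control against 45.3 CPM in TP, above the levels of cycling-like (38.6 and 18.3 CPM), hair matrix and cortex-like (13.9 and 6.53 CPM) and melanocyte-like cells (28.2 and 13.5 CPM). Since whole classes lie below it, that level is not free RNA alone for Osmr, and subtracting it cannot decide on these calls. With it subtracted, the call in DSC-like cells was the only one of the 4 left. Their TP level, 25.2 CPM, was below the reference too, so 0 was left in TP. DSC-like cells were not among the classes compared with coarser clusters, so that call has no value there. In DPC-like cells it stood at 41.1 CPM in control against 22.8 CPM in TP (0.554, 0.466 to 0.656), short of the limit, and in DF-like cells the difference pointed the other way, at 1.87 (1.05 to 3.66).

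Socs3, the feedback inhibitor of the IL-6 receptor, was called higher in 11 of the 17 classes, more than any other member, and its ratio was above 1 in all 17. The 11 include inner root sheath-like cells, the reference for free RNA, at 2.50 CPM in control against 6.29 CPM in TP. They also include cycling-like cells, at 3.27 CPM in control against 9.64 CPM in TP. In the reference class free RNA and RNA of its own cells cannot be told apart. DPC-like cells had 95.7 CPM (90.2 to 101) in control against 521 CPM (506 to 537) in TP, with a ratio of 5.45 (5.10 to 5.82), and DSC-like cells 157 CPM in control against 399.7 CPM in TP, with a ratio of 2.54 (2.03 to 3.21). DPC-like cells supplied 1135 of the 2335 Socs3 UMIs of control and 4391 of the 10725 of TP. Macrophage-like cells went from 54.5 CPM (29.8 to 91.5), on 14 UMIs, to 474 CPM (437 to 514), a ratio of 8.70 (5.14 to 16.0). Melanocyte-like cells had 8.67 CPM in control against 53.1 CPM in TP, with a ratio of 6.13 (3.29 to 12.4). In TP the highest Socs3 levels were those of DPC-like and macrophage-like cells, and in control those of DSC-like and endothelial-like cells, with overlapping intervals within either pair.

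**Figure D4:**
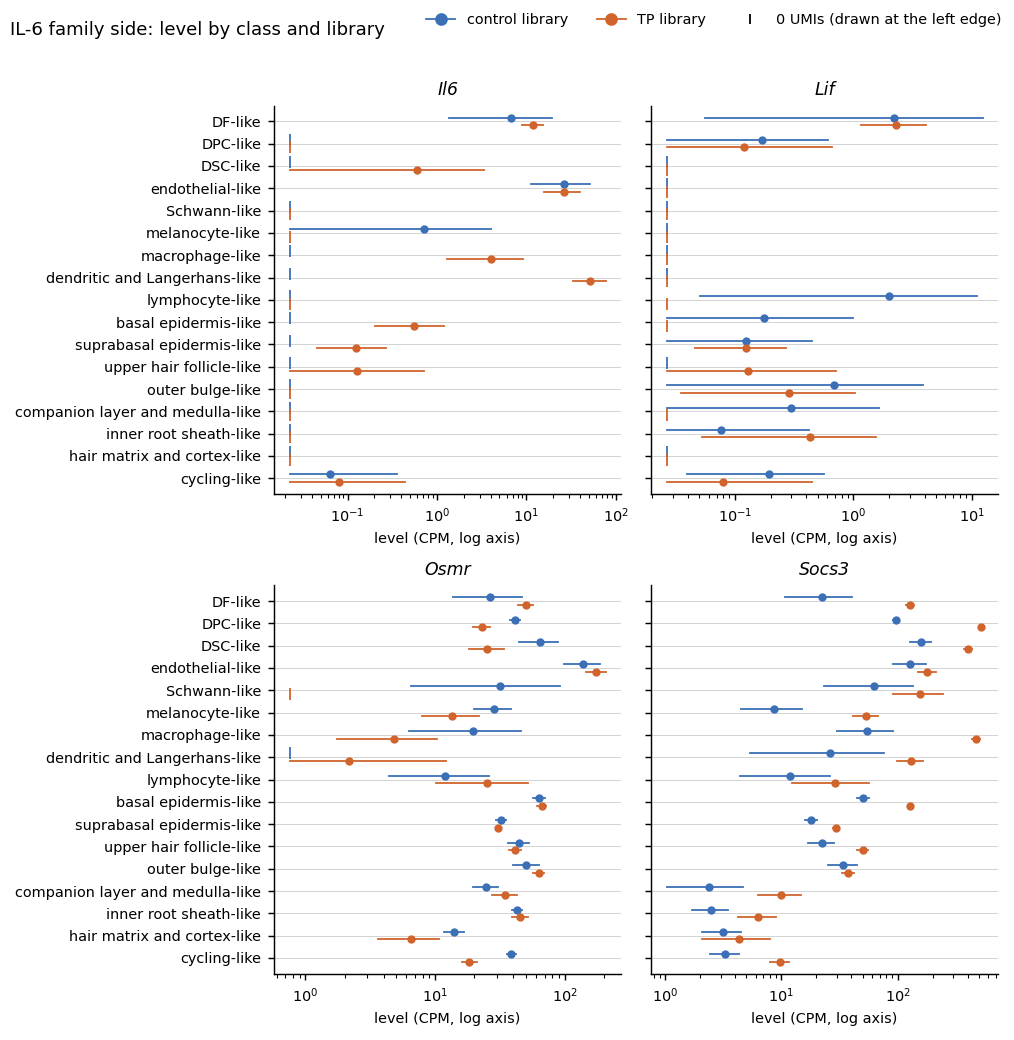
Levels in CPM (log axes) of the 4 genes on the IL-6 side in the 17 compared classes, blue for control and orange for TP, with 95% Poisson intervals as lines and ticks at the left edge for 0 UMIs. Socs3 points of TP lie to the right of control in every class, while Osmr points of DPC-like, DSC-like, cycling-like and matrix cells lie to the left.

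There were 7 classes with at least 4 members called higher. DF-like cells had 5 higher and 0 lower of 9 measured, beside 2.11% and 9.19% of all genes in that class. Their 127 control cells were spread over 6 subclusters, so the largest of these, with 60 control and 109 TP cells, was taken by itself. In it Nfkbia was at 65.1 CPM in control against 249 CPM in TP (3.83, 2.06 to 7.90), Nfkbiz had a ratio of 4.25 (2.23 to 9.11), Tnfaip3 of 5.06 (1.61 to 25.6) and Socs3 of 5.51 (1.39 to 47.6). The Socs3 ratio there rests on 2 control UMIs, and Relb, at 4.56 (0.674 to 195), no longer passed.

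Macrophage-like cells had 4 higher and 0 lower of 8 measured, beside 5.43% and 14.6% of all genes. Most control cells (68 of 114) lay in a subcluster with 77 of the 282 TP cells, and most TP cells (166) in one with 15 control cells. In the former, Socs3 had a ratio of 6.73 (3.09 to 17.4) and Tnfaip3 of 6.43 (1.98 to 33.1), while Nfkbiz, at 1.94 (1.30 to 2.94), did not reach 2-fold. Tnf, with 3 and 17 UMIs, had a ratio of 4.05 (1.17 to 21.5) in that subcluster, but 1.36 (0.404 to 7.16) in the class. Neutrophil markers summed to 183 CPM in control and 60.5 CPM in TP in the macrophage-like class, and their part in these values was not tested.

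DPC-like cells had 2 higher and 0 lower of 8 measured (all genes 4.21% and 9.44%), and were in 2 clusters with different shares in the libraries. Socs3 had a ratio of 5.53 (5.08 to 6.04) in the cluster with Sostdc1 and Vcan among its leading genes and 5.66 (5.05 to 6.34) in the one with Wif1 and Ndnf, and Nfkbiz 4.16 (3.65 to 4.74) and 3.24 (2.81 to 3.72). Nfkbia passed only in the second, at 3.41 (2.93 to 3.97) against 1.5 (1.32 to 1.71) in the first. Osmr was lower in the first, at 0.485 (0.394 to 0.595), and 0.888 (0.631 to 1.23) in the second. The intervals of Nfkbia and of Osmr in the 2 clusters do not overlap and the difference between clusters has no replicate check.

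DSC-like cells had 4 higher and 1 lower of 7 measured (all genes 4.09% and 6.5%), with Tnfaip3 at 3.74 (1.73 to 9.61) as the largest ratio. Lymphocyte-like cells had 4 higher and 0 lower of 8 (4.84% and 7.38%), and dendritic and Langerhans-like cells 5 higher and 0 lower of 8 (3.82% and 4.73%), the latter from 52 control cells. Of those cells 25 lay in the cluster with Cd207, against 19 of 110 in TP, so this class too differed in its clusters. In the other cluster, with 27 and 91 cells, Tnfaip3, Socs3 and Il6 passed, while Nfkbiz, at 1.67 (1.06 to 2.76), and Tnf, at 1.19 (0.353 to 6.25), did not, and in the cluster with Cd207 Tnf alone passed. Cycling-like cells, whose 2 clusters had different shares in the libraries as given above for Tnf, had 5 higher and 1 lower of 8 (4.07% and 7.7%), and inner root sheath-like cells 4 higher and 0 lower of 8 (2.77% and 4.97%). Within cycling-like cells, Nfkbia passed in both clusters, at 3.47 (3.02 to 3.97) and 2.12 (1.97 to 2.28), and Tnfaip3, at 2.99 (2.22 to 4.10), and Socs3, at 3.62 (2.24 to 6.16), in the one led by histone genes. Hair matrix and cortex-like cells had 3 higher and 1 lower of 8 (2.8% and 3.9%), companion layer and medulla-like cells 3 and 0 of 8 (3.38% and 4.67%), and basal epidermis-like cells 2 and 1 of 8 (1.81% and 7.68%). Melanocyte-like cells had 1 and 1 of 7 (5.12% and 10.5%), upper hair follicle-like cells 1 and 0 of 7 (1.88% and 5.92%), suprabasal epidermis-like cells 0 and 1 of 8 (2.13% and 12.8%) and Schwann-like cells 0 and 0 of 4 (6.35% and 4.01%). Endothelial-like and outer bulge-like cells had 0 of 8 called in either direction, beside 3.29% and 2.43% of all genes higher and 5.24% and 4.69% lower. With shares this small, 0 of 8 does not set the members apart from other genes.

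Shares of positive cells were read after thinning every cell to 1000 UMIs, because TP cells were deeper. Nfkbia was detected in 6.35% (2.78 to 12.1) of control and 23.6% (20.1 to 27.3) of TP DF-like cells, where the unthinned shares were 15.0% and 60.2%. Socs3 was detected in 6.94% (6.14 to 7.81) and 29.5% (27.0 to 32.1) of DPC-like cells, unthinned 17.1% and 58.4%. In macrophage-like cells the shares for Socs3 were 3.41% (0.709 to 9.64) and 29.2% (23.6 to 35.4), unthinned 9.65% and 56.0%, with median depths of 1724.5 and 4371 UMIs. Inner root sheath-like cells, a terminally differentiating keratinocyte lineage used as a reference for free RNA, had Socs3 in 0.343% (0.200 to 0.549) and 0.401% (0.0828 to 1.17), at median depths of 1990 and 3681 UMIs, so the shares in DPC-like and macrophage-like cells stood above that background. The same cells had Nfkbia in 5.61% (4.99 to 6.29) and 10.6% (8.45 to 13.0), so the control share of DF-like cells for Nfkbia did not stand above it.

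Within a class, members were found in the same cells to different degrees. Among 243 macrophage-like cells of TP with 1000 thinned UMIs, Nfkbia was detected in 50% (32.4 to 67.6) of the cells with Tnfaip3 and in 21.1% (15.7 to 27.2) of those without. Socs3 was found in 55.9% (37.9 to 72.8) of the cells with Tnfaip3 and 24.9% (19.2 to 31.3) of the others. In DPC-like cells of TP, Socs3 was found in 42.6% (35.2 to 50.3) of cells with Nfkbiz and 27.3% (24.7 to 30.1) of cells without it. Cells of 1 library share their source, and these shares are descriptions of it, given for pairs chosen after their values were seen.

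The rest of the pathway was read from lists. Of 15 further NF-kB subunits, inhibitors and kinases, 1 was higher over all kept cells and 0 lower, namely Bcl3, an atypical IκB protein, at 3.36 CPM in control against 15.5 CPM in TP. Of 18 TNF receptors, adaptors and ubiquitin editors, 1 was higher, Zc3h12a, which encodes the RNase Regnase-1 that cleaves inflammatory messages, at 15.1 CPM in control against 32.5 CPM in TP. Traf3, an adaptor that restrains the non-canonical pathway, had a ratio of 0.522 (0.508 to 0.537), which is short of 2-fold. For genes with at least 50 UMIs, the share of all genes was 8.37% higher and 10.3% lower.

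Target genes were called in larger numbers. Of 18 measured NF-kB target genes, 10 were higher and 0 lower, with a median log2 ratio of 1.21. Ccl7, a chemokine for monocytes, was at 0.555 CPM in control against 7.35 CPM in TP. Of 10 STAT3 target genes, 8 were higher and 0 lower, with a median log2 ratio of 1.80, led by Serpina3n, an acute-phase protease inhibitor, at 0.621 CPM in control against 9.82 CPM in TP. Bcl3 is on this list too. Of 15 JAK, STAT and inhibitor genes, 1 was higher, the kinase Jak1. Of 14 IL-6 family ligands and receptors, 2 were higher and 2 lower. Osm, the ligand of Osmr, was among the higher ones with 8 UMIs in control against 106 in TP, a ratio of 10.7 (5.24 to 25.4). The lower ones were Cntfr, a receptor subunit, at 0.488 (0.466 to 0.510), and the cytokine gene Il27, at 0.410 (0.257 to 0.643). The libraries differed in their shares of the cell classes, and the part of that in these whole-library values was not tested. DF-like cells, more frequent in TP, held 1089 of the 1293 Serpina3n UMIs of TP, and their own ratio was 3.56 (2.47 to 5.35). For Ccl7 the ratio was 0.703 (0.502 to 1.01) in DF-like cells and 33.7 (11.5 to 164) in macrophage-like cells, the latter on 3 control UMIs.

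Target genes were also counted in 5 of the classes, macrophage-like cells first. There, 6 of 10 NF-kB target genes and 6 of 6 STAT3 target genes with at least 50 UMIs were higher and 0 lower, beside 9.54% of all genes higher. DPC-like cells had 4 of 10 and 2 of 6 higher (all genes 3.68%), DF-like cells 5 of 12 and 4 of 9 (2.83%), basal epidermis-like cells 6 of 12 and 2 of 5 (1.58%) and endothelial-like cells 0 of 5 and 3 of 6 (3.75%), with 0 lower in these lists. The lists overlap in part with one another and were chosen with results of these samples known, so their counts are a description.

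In macrophage-like cells the list genes with the largest ratios were the monocyte chemokines Ccl2 (3.90 CPM in control against 189 CPM in TP) and Ccl7 (11.7 CPM in control against 394 CPM in TP) and the interleukin 4 receptor Il4ra (27.3 CPM in control against 399 CPM in TP). Their control levels rest on 1, 3 and 7 UMIs, and most TP cells of this class lay in a subcluster with few control cells. Il1b had a ratio of 0.545 (0.374 to 0.809) in these cells, short of 2-fold, while dendritic and Langerhans-like cells had 0 Il1b UMIs in control and 459 CPM in TP. The smallest ratios in macrophage-like cells were those of the kinase Map3k7, 0.452 (0.257 to 0.822), and of Traf3, 0.465 (0.296 to 0.746), both called lower. In DPC-like cells the largest were the neutrophil chemokine Cxcl1 (5.82 CPM in control against 95.4 CPM in TP), Zfp36, whose product destabilises messages (35.6 CPM in control against 560.3 CPM in TP), and the transcription factor Cebpd (27.1 CPM in control against 237 CPM in TP). The heat-shock gene Hspa1a had the smallest ratio there, 0.518 (0.489 to 0.548). In DF-like cells Ier3, an early response gene, was at 6.66 CPM in control, on 3 UMIs, against 103 CPM in TP. Ptgs2, which encodes the prostaglandin synthase COX-2, and the chemokine gene Cxcl10 had 0 UMIs in control and 13.9 and 15.2 CPM in TP. In DSC-like cells the largest was Socs2, another inhibitor of the Socs family, at 8.84 CPM in control, on 5 UMIs, against 64.3 CPM in TP.

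Immediate-early genes were higher in TP beside the members. The 14 genes of that list, Fos, Jun, Egr1, Atf3 and others that are switched on within minutes of a stimulus or of dissociation, were summed in each class, and the sum was higher in TP in all 17. It went from 3015 to 9404 CPM in DF-like cells, from 2628 to 12335 in DPC-like cells, from 4418 to 14826 in macrophage-like cells and from 1919.5 to 6525 in inner root sheath-like cells. The ratio was smallest in suprabasal cells, at 1.30, where 0 members were called higher. It was 1.47 in endothelial-like cells, which had 0 of 8 called, and 1.48 in dendritic and Langerhans-like cells, which had 5 of 8 called higher. The largest ratio was that of DPC-like cells, 4.69, with 2 of 8 called higher, and outer bulge-like cells had 1.99 with 0 of 8 called. Counts of 0 of 8 are near the small shares of all genes given above for these classes. Over all kept cells 11 of the 14 were higher and 0 lower, and the heat-shock genes Hspa1a (0.752, 0.738 to 0.765) and Hspa1b (1.03, 1.01 to 1.05) were among the 3 others. Across the 17 classes, the log2 ratio of this sum had a Pearson r of 0.643 with the log2 ratio of Nfkbiz, 0.554 with Nfkbia and 0.395 with Socs3. For Relb it was 0.530 and for Tnfaip3 0.302 over 16 classes, for Nfkb1 0.146 over 17, for Tnf 0.0714 over 11 and for Osmr -0.323 over 15. These are descriptions over classes that share the same 2 libraries. The share of ribosomal protein UMIs in DF-like cells was 8.44% in control and 8.03% in TP, in DPC-like cells 8.11% and 8.28%, and in macrophage-like cells 10.1% and 7.57%. What part dissociation, RNA quality or the treatment had in the members' differences was not tested, and with 1 library per group they cannot be told apart.

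**Figure D5:**
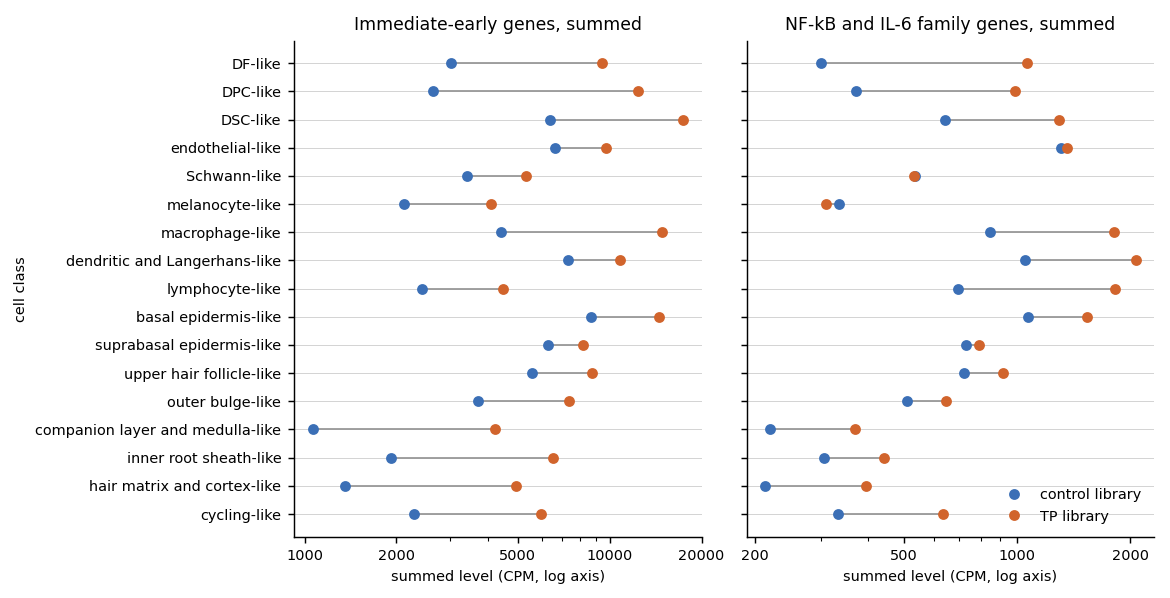
Summed level in CPM (log axes) of the 14 immediate-early genes (left) and of the 10 NF-kB and IL-6 family genes (right) in the 17 compared classes, blue for control and orange for TP, joined by a line per class. The immediate-early sum is higher in TP in every class, for example 2628 against 12335 CPM in DPC-like cells. The sums of the 10 genes nearly coincide in endothelial-like, Schwann-like and melanocyte-like cells. Single genes can still differ there, as in melanocyte-like cells, where Socs3 was called higher and Osmr lower.

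Over the 34 profiles of compared class and library, the genes with the profile most like a member differed by member. The measure was the Pearson r of log2(CPM + 10) over 12044 genes. For Nfkbiz they were the phosphatase gene Dusp1 (0.916) and the IL-6 receptor gene Il6ra (0.868), for Socs3 Cebpd (0.837) and Fndc3b (0.810), and for Nfkbia Clic1 (0.831) and Nfkbiz (0.807). For Tnfaip3 they were Arhgdib (0.827) and Arhgap25 (0.826), for Tnf Coro1a (0.857) and Map4k1 (0.844), and for Relb Tmsb4x (0.886) and Pde4b (0.857). Nfkb1 was most like Rfx2 (0.766) and Actr3 (0.756), and Osmr like Ephb4 (0.825) and Cdc42ep5 (0.786). The rare Il6 was most like Ifit2 (0.777) and Isg15 (0.770), and Lif like Cercam (0.758) and Col6a6 (0.713). Il6 and Lif had no or few UMIs in most profiles, so these values rest on few of them. Between members r ran from -0.621 for Tnf and Osmr to 0.807 for Nfkbia and Nfkbiz.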

How the data were processed

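Skin of 15 mice per group was pooled and sequenced as 1 droplet library per group. The authors made the deposited UMI counts with Cell Ranger 8.0.1 on mm10, per the submitters' processing notes, without normalization. Following the study's methods, barcodes outside 200 to 8000 genes or above 10% mitochondrial counts were dropped. The DoubletFinder procedure was rewritten (25% artificial doublets, 30 components, nearest 1%), and the top 7.5% of barcodes by score were removed per library. Seurat 5.3.0 (R 4.3.3) integrated the libraries by reciprocal PCA on 1964 of 2000 variable genes, leaving out the gene lists, with Louvain clusters at resolution 1. Mixed clusters were split again with 20 components at resolution 0.6. A cluster was named where its marker score reached 1.25 with 3 markers detected, unless another class had more markers among its 10 leading genes. The marker Krt85 was not in the feature table.

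Kept cells held 106364087 UMIs in control and 131683586 in TP. Levels, ratios and intervals were computed in Python (3.11.15, with scipy 1.17.1). Intervals at 95% were exact Poisson for levels, exact conditional binomial for ratios, Clopper-Pearson for shares, and a normal approximation on the log scale for ratios at the control class shares. The procedure was checked on simulated data. The alternatives were TMM factors, other filters on cells and counts, coarser clusters, subtraction of a free RNA reference, and ribosomal scaling. Members, lists and naming rules were chosen with earlier results of these data known. Named list genes have the 3 largest or 3 smallest ratios in a class described, with at least 50 UMIs, and each member has its 2 most similar profiles. Bcl3, Zc3h12a, Jak1 and the genes leading the Tnf clusters were named after their values were seen.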

Additional observations from a re-analysis of the deposited data

Results flagged for a closer look

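Tnf was the only one of the 10 genes called higher in TP in some of the 17 classes and lower in others. Its ratio was 3.02 in cycling-like cells and 2.84 in dendritic and Langerhans-like cells, but 0.444 in basal and 0.244 in suprabasal epidermis-like cells. The difference between classes was not tested, since each ratio comes from 1 library per group. The epidermal values rest on 14 to 20 UMIs per library and class, and the dendritic value on 4 UMIs in control. In the cycling-like cluster with most of the Tnf UMIs the ratio was 1.87, which is not a call. Of the 2 dendritic and Langerhans-like clusters the one with Cd207 passed and the other did not. Both epidermal calls were lost with doublets kept, without the 1% of cells with most Tnf UMIs and with the level of inner root sheath-like cells subtracted. That level was above both suprabasal levels, and subtracting it left a basal ratio of 0.0434. The last 2 settings take away most of the few counts, so they cannot decide on these calls.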

How the results depend on the processing

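The count of members called over all kept cells (5) lay between 4 and 6 over the alternatives, the count at the control class shares (4) between 3 and 5, and the count of pairs of member and class (49) between 39 and 53. Socs3 and Tnfaip3 were called in both whole-library comparisons under each of these. Nfkbia over all kept cells fell to 1.88 when divided by ribosomal protein UMIs and to 1.93 when the level of inner root sheath-like cells was subtracted. That subtraction also made Nfkb1 over all kept cells a call and turned values that were not calls into lower ones, among them Lif over all kept cells and Nfkbia in DPC-like cells, both with 0 left in TP, and Nfkb1 in macrophage-like cells. In control the reference had 162 CPM of Nfkb1, above the 149 CPM over all kept cells, and its Lif level in TP rests on 2 UMIs. Where the reference holds as much of a gene as the cells compared, subtracting it cannot decide on free RNA. Tnf over all kept cells came to 2.16 without the 1% of cells with most Tnf UMIs, and at the control class shares to 1.76 with clusters at resolution 0.5, 1.93 with a mitochondrial limit of 5% and 4.79 without those cells. Leaving out those cells takes away many counts of a message this rare, so the values of 2.16 and 4.79 cannot decide. At the control class shares Il6 was not a call without the 1% of cells with most of it, with a ratio of 2.05. TMM factors for TP over control were 0.845 for all cells, 0.774 for DF-like and 0.740 for macrophage-like cells, and raise every ratio by their inverse. Scaling to ribosomal protein UMIs and using only the cluster with most control cells of a class were chosen after seeing the data. The Nfkbia ratio in DF-like cells ranged from 3.83 to 8.59, that of Socs3 in DPC-like cells from 5.09 to 6.01 and that of Tnfaip3 in macrophage-like cells from 6.43 to 35.6 over the alternatives. The first range leaves out the subtraction, because control DF-like cells (55.5 CPM) were below inner root sheath-like cells (58.7 CPM). The Nfkbiz ratio in DF-like cells ranged from 4.25 to 10.3 and the Tnfaip3 ratio in DSC-like cells from 3.34 to 13.0. No value called in the report over the whole libraries or in DF-like, DPC-like, DSC-like, macrophage-like and basal epidermis-like cells changed its direction. The cause was not tested in any case. No paired analysis was possible because each group is 1 library, and leaving out a replicate was not possible for the same reason.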
